A study of Mus musculus with 2 samples.

Results

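Chemokines are small secreted proteins that guide migrating cells, and the genes of their ligands and receptors were followed here through the cells of the mouse incisor. The set was taken by symbol alone: Ccl, Cxcl, Ccr or Cxcr followed by digits and an optional letter, Xcl1, Xcr1, Cx3cl1, Cx3cr1, and Ackr followed by a digit. It held 66 of the 31053 genes in the matrix (61 symbols, since 5 symbols occur in 2 rows each): 44 ligand rows, 18 signalling receptors and 4 atypical receptors. The ligand Cxcl11 was not analysed here.

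The tissue came from untreated C57BL/6 mice of 4 weeks kept in pathogen-free housing. The labels name it dental mesenchyme, whereas the protocol kept pulp and dental epithelium of the mandibular incisor together and freed the cells with collagenase I, for a target of 10000 cells. Both titles describe lanes of the same material and the deposited counts are a single matrix with no map from barcodes to lanes, so the data are 1 sample from an unknown number of animals. No difference below therefore has a replicate check or a p-value, and all intervals are exact 95% intervals that cover counting error only.

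Of 6794880 barcodes, 4775 had at least 500 detected genes and at most 20% mitochondrial transcripts, and 4539 remained after removal of 122 doublet calls and 114 barcodes rich in haemoglobin. These 4539 cells held 34641242 unique molecular identifiers (UMIs, 1 per captured transcript), with a median of 5783 per cell. Clusters were made without the chemokine genes and named from marker lists. They gave 2204 mesenchymal (48.6%), 769 epithelial (16.9%), 1398 immune (30.8%), 74 endothelial and 94 erythroid cells, so the labelled mesenchyme made up less of the sample than the other cells together. The immune cells comprised 554 macrophage-like, 160 monocyte-like, 101 dendritic-like, 188 neutrophil-like, 206 B-like, 115 T-like and 74 cytotoxic lymphocyte-like cells. Median depth ran from 1694 UMIs in B-like cells to 9304 in epithelial cells, and levels are therefore given as CPM, the counts of a cell class scaled to a total of 1e6 UMIs.

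Chemokines bind receptors with a transmembrane fold coupled to Gi proteins, and a gradient of ligand draws the cells that carry the receptor. Inflammatory ligands such as CCL2 and CXCL2 are made on stimulation, by macrophages among others, whereas homeostatic ligands such as CXCL12 are made constantly by stromal cells and hold receptor-bearing leukocytes in place. Atypical receptors (the Ackr genes) bind chemokines without Gi signalling and take them up. Teeth hold resident macrophages and other immune cells in the pulp, and odontoblasts and ameloblasts lay down the mineralised matrix.

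Sequence upstream of 4 inflammatory ligand genes is shown because their shared upstream letters can be set beside the cells that held their transcripts. RefSeq promoters of assembly GRCm38.p6 were matched for 45 of the 61 symbols. Each stretch below is the 200 bases before the annotated start, 5′ to 3′ on the gene's strand, with matches to the NF-κB consensus in capitals. The first 3 genes lie on the plus strand of chromosome 5 at chr5:90891045-90891244 (Cxcl1), chr5:90903699-90903898 (Cxcl2) and chr5:90785901-90786100 (Cxcl3), and Cxcl10 lies on the minus strand at chr5:92348890-92349089.
Cxcl1: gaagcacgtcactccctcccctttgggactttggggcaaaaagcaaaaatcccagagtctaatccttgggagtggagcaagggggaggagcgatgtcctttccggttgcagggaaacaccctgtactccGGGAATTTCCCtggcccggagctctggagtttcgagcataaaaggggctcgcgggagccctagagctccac
Cxcl2: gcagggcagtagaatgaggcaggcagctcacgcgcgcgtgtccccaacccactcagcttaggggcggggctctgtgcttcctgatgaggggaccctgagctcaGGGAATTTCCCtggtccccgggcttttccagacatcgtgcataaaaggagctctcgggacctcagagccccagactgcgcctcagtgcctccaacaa
Cxcl3: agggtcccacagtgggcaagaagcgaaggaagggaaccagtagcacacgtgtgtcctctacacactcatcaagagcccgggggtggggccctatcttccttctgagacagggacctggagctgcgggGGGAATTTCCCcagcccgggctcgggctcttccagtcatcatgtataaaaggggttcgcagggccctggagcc
Cxcl10: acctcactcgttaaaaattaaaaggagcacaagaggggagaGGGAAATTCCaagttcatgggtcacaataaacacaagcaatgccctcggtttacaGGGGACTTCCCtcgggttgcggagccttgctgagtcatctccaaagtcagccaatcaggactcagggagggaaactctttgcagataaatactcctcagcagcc
The letters GGGAATTTCCC stood in Cxcl1, Cxcl2 and Cxcl3, beginning 71, 97 and 73 bases before the start in that order of genes. Cxcl10 held GGGAAATTCC 159 bases and GGGGACTTCCC 104 bases before its start. The consensus, searched on both strands, matched 2779 of 32851 RefSeq promoters of 300 bases (8.46%) and 12 of the 45 member symbols. Those 45 symbols have 52 promoters, and a symbol counted when any of its promoters matched. The member count is therefore per symbol and the 8.46% per promoter. Among the 7 members with at least 30 UMIs, a promoter entry and their highest level in macrophage-like cells, Cxcl1, Cxcl2 and Cxcl10 held a match and Ccl12, Ccl3, Ccl8 and Cx3cr1 did not. A match describes letters and is not evidence of binding.

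The chemokine genes held 78249 UMIs in the kept cells, 0.226% of all, of which ligands made up 93%, receptors 6.21% and atypical receptors 0.832%. At least 30 UMIs were found for 33 rows (19 ligands, 10 receptors and all 4 atypical receptors), 1 to 29 for 19 rows and none for 14. The undetected symbols were Ccl20, Ccl21b, Ccl21c, Ccl26, Ccl27, Cxcl15, Cxcl17, Ccr4 and Ccr8. A count of 0 over all kept cells has an exact upper limit of 0.106 CPM. Counts of 22 for Ccl1 and Xcr1, 20 for Ccr10, 17 for Cxcl3, 15 for Xcl1, 13 for Ccl28, 12 for Cxcr5 and 11 for Ccr6 were the largest below 30. Ccl11, Ccr3 and Cxcl9 had 8 UMIs each, Ccl17 had 6, Ccl21a and Ccl22 had 5, Cxcr1 had 4, Cxcl13 had 3, Ccl19 had 2, and Ccl27b and Cxcl5 had 1. The near-identical copies of Ccl19, Ccl21 and Ccl27 share reads, and their rows are uncertain.

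By class, chemokine transcripts made up 2.86% of UMIs in cytotoxic lymphocyte-like cells, 2.10% in macrophage-like cells and 0.945% in T-like cells. The share was 0.384% in neutrophil-like, 0.294% in dendritic-like, 0.267% in monocyte-like and 0.133% in B-like cells. It was 0.0494% in endothelial, 0.0413% in erythroid, 0.0335% in mesenchymal and 0.0143% in epithelial cells. A gene was called higher or lower between groups of cells when its CPM differed at least 2-fold and it had at least 30 UMIs over both. In immune cells 24 of 33 measured members were higher than in all other cells and 8 were lower, beside 17.4% and 33.2% of the 13999 genes measured. All 10 receptors and 14 of 19 ligands were among the higher genes, and all 4 atypical receptors were among the lower ones. The median log2 ratio was 6.60 over the members and -0.42 over all genes.

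**Figure D1:**
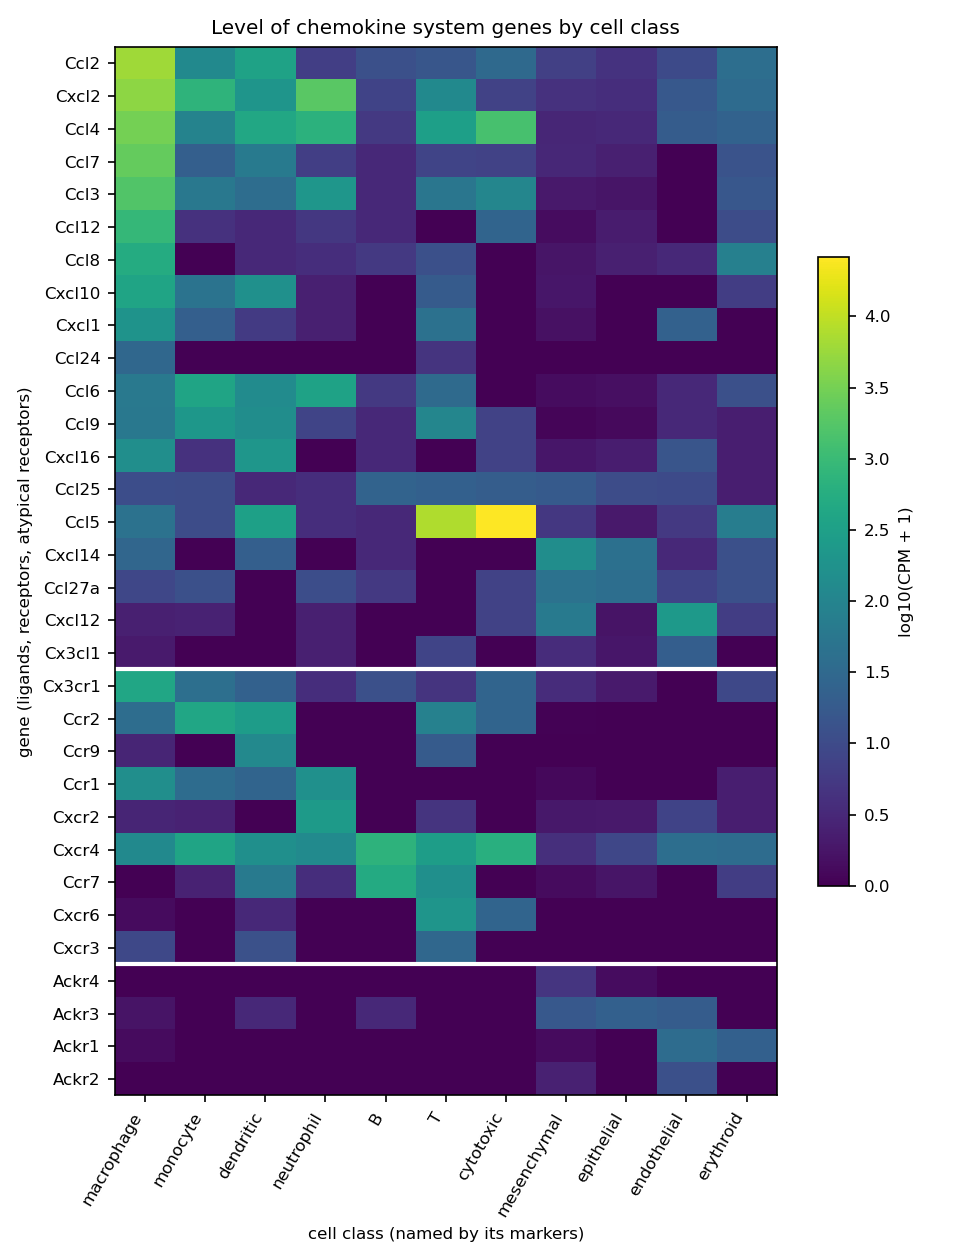
Level of 32 of the chemokine genes with at least 30 UMIs (rows) in 11 cell classes (columns), as log10 of CPM plus 1. Bright colours mark high levels. Most ligand and receptor rows are brightest in an immune column, whereas Cxcl12, Cxcl14 and the 4 Ackr genes are brightest in mesenchymal, epithelial or endothelial columns.

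Ccl2 and its neighbours Ccl7, Ccl12 and Ccl8 were highest in macrophage-like cells. Ccl2, which attracts CCR2-bearing monocytes, reached 6042 CPM in macrophage-like cells (interval 5949 to 6135), against 355 CPM in dendritic-like, 125 CPM in monocyte-like and at most 38.2 CPM in every other class. After each cell was thinned to 2000 UMIs, 83.9% of 446 macrophage-like cells had a Ccl2 UMI (80.1 to 87.1%; 81.6% unthinned), against 1.62% of 2032 mesenchymal cells (4.17% unthinned) at median depths of 4246.5 and 7005 UMIs. Ccl2 was therefore widespread in macrophage-like cells, and the part of RNA from outside the cell in the low mesenchymal share was not tested. Its counts were uneven: the upper 10% of macrophage-like cells held 46.3% of their Ccl2 UMIs.

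Ccl7 and Ccl12, which also attract monocytes, and Ccl8, all neighbours of Ccl2, had the same highest class. Ccl7 had 2326 CPM in macrophage-like cells and 66.5 CPM in dendritic-like cells. Ccl12 had 874 CPM in macrophage-like cells and at most 25.3 CPM elsewhere. Ccl8 had 522 CPM in macrophage-like cells; its 81.8 CPM in erythroid cells rested on a single cell with 59 of 60 UMIs. These 4 genes lie with Ccl11 and Ccl1 in 270.12 kb of chromosome 11 (82035571 to 82305690, GRCm38), and the other members of that block differed: Ccl11, an eosinophil attractant, had 8 UMIs, and Ccl1 had 22, of which 19 were in T-like cells (68.2 CPM).

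Ccl3 and Ccl4, inflammatory ligands that lie beside Ccl5, Ccl9 and Ccl6 on chromosome 11 (83525778 to 83664683), were spread over more classes. Ccl3 was at 1639 CPM in macrophage-like cells, 206 CPM in neutrophil-like cells and 108 CPM in cytotoxic lymphocyte-like cells. Ccl4 was at 3134 CPM in macrophage-like, 1342 CPM in cytotoxic lymphocyte-like, 698 CPM in neutrophil-like, 440 CPM in dendritic-like and 312 CPM in T-like cells. Both were at or below 2.27 CPM in mesenchymal and epithelial cells.

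Ccl5, a ligand stored by effector lymphocytes, was the lymphocyte gene of that block. It reached 26270 CPM in cytotoxic lymphocyte-like cells and 7798 CPM in T-like cells, against 326 CPM in dendritic-like cells and 73.6 CPM in erythroid cells. The T-like level was uneven, since 12 of 115 cells held 74.6% of its UMIs. Of 34 thinned cytotoxic lymphocyte-like cells, 33 had a Ccl5 UMI (97.1%, 84.7 to 99.9%), against 31.9% of T-like cells and 0.394% of mesenchymal cells. The non-lymphocyte values leaned on single cells: 1 cell gave 93 of 142 dendritic-like UMIs, 71 of 124 macrophage-like UMIs and 52 of 54 erythroid UMIs in its class.

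Ccl6 and Ccl9, CCR1 ligands described in the mouse, had their highest levels in monocyte-like cells. Ccl6 was at 374 CPM in monocyte-like and 353 CPM in neutrophil-like cells, against 133 CPM in dendritic-like and 60.3 CPM in macrophage-like cells. Ccl9 was at 221 CPM in monocyte-like, and 144 CPM in dendritic-like cells. Its 108 CPM in T-like cells rested on 2 cells with 17 and 12 of 30 UMIs. Ccl24, an eosinophil attractant, was confined to 28.5 CPM in macrophage-like cells and 1 UMI in T-like cells.

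Among CXC ligands, Cxcl2, which attracts neutrophils through CXCR2, was high in neutrophil-like as well as macrophage-like cells. It was at 4734 CPM in macrophage-like, 1962 CPM in neutrophil-like and 755 CPM in monocyte-like cells, with at most 202 CPM in any other class. Its relative Cxcl1 was at 188 CPM in macrophage-like cells and 1.43 CPM in neutrophil-like cells. Cxcl3, the third neutrophil attractant with the same upstream letters, had 17 UMIs. It was highest in neutrophil-like cells (15.7 CPM), but all 11 UMIs there came from 1 cell, in the Retnlg cluster. Cxcl10, an interferon-induced ligand of CXCR3, was at 376 CPM in macrophage-like and 163 CPM in dendritic-like cells. Cxcl16, the membrane-bound ligand of CXCR6, was at 209 CPM in dendritic-like and 155 CPM in macrophage-like cells.

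Within immune cells, the macrophage- and monocyte-like cells were set against the rest. Of 27 measured members 15 were higher and 5 lower, beside 21.9% and 9.27% of 9145 genes. The largest log2 ratios belonged to Ccl12 (7.32, interval 6.39 to 8.45), Ccl8 (6.75), Ccl7 (6.69) and Ccl2 (5.85, 5.63 to 6.07). In a list of inflammatory genes 6 of 11 were higher and 1 lower, and in a list of genes known to respond to tissue dissociation 9 of 12 were higher and 0 lower; their part in the result was not tested.

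Macrophage-like cells fell into 3 clusters, called by a leading gene: 352 cells led by the mannose receptor Mrc1, 129 led by the MHC class II gene H2-Eb1 and 73 led by Bcl2a1b. Each carried a different set of ligands. In the Bcl2a1b cluster 7 of 20 measured members were higher than in the other macrophage-like cells and 7 lower, beside 4.3% and 20.7% of 7179 genes. In the Mrc1 cluster 7 were higher and 2 lower, beside 14.2% and 2.26%. In the H2-Eb1 cluster 3 were higher and 12 lower, beside 1.96% and 21.3%.

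The Bcl2a1b cluster was high in Cxcl2, Ccl4, Ccl3, Cxcl10 and Cxcl1. Cxcl2 reached 10902 CPM there, against 3932 CPM in the other macrophage-like cells (log2 ratio 1.47, 1.41 to 1.53). Ccl4 reached 9236 CPM against 2341 CPM (1.98, 1.92 to 2.05), and Cxcl10 reached 929 CPM against 305 CPM (1.61, 1.41 to 1.81). Cxcl16 (1.48), Cxcl1 (1.39), Ccl3 (1.26) and Cxcl14 (3.37, from 43 UMIs) were the other higher members. Ccl8 was almost missing from this cluster, with 2 of 1413 macrophage-like UMIs (log2 ratio -6.52, -9.57 to -4.66), and Ccl7 (-2.21) and Ccl2 (-1.04) were lower too. In the inflammatory list 7 of 10 measured genes were higher and 0 lower, led by the cytokine gene Il1a at 945 CPM against 18.8 CPM, whereas the dissociation list had 1 higher and 1 lower.

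The Mrc1 cluster held the monocyte attractants. Ccl2 reached 7477 CPM there, against 1975 CPM in the other macrophage-like cells (1.92, 1.84 to 2.00), Ccl7 2995 CPM against 432 CPM (2.79, 2.63 to 2.96) and Ccl12 1055 CPM against 361 CPM (1.55, 1.36 to 1.74). Ccl24 (2.06) and the receptors Cxcr4 (1.60) and Ccr1 (1.13) were higher as well; the call for Ccl5 (1.86) came down to 0.43 without the cell that gave 71 of its 113 UMIs. Among the dissociation genes 4 were higher and 0 lower here, and their part in the result was not tested.

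The H2-Eb1 cluster was the quiet one. Cxcl1 had 0 UMIs there and 508 in the other macrophage-like cells, Cxcl10 had 2 UMIs against 1016 (log2 ratio -6.44, -9.49 to -4.58), and Cxcl2 was at 357 CPM against 5481 CPM (-3.94, -4.19 to -3.70). Ccl8 was an exception at 542 CPM, near the 599 CPM of the Mrc1 cluster. The receptor Ccr2 was at 155 CPM against 16.5 CPM (3.23, 2.62 to 3.86), with Ccl9 (1.19) and Ccl6 (1.02, or 0.88 without the highest cell) also higher. All 10 measured inflammatory genes and 10 dissociation genes were lower in this cluster, whose median depth was 2256 UMIs against 5080 in the Mrc1 cluster.

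**Figure D2:**
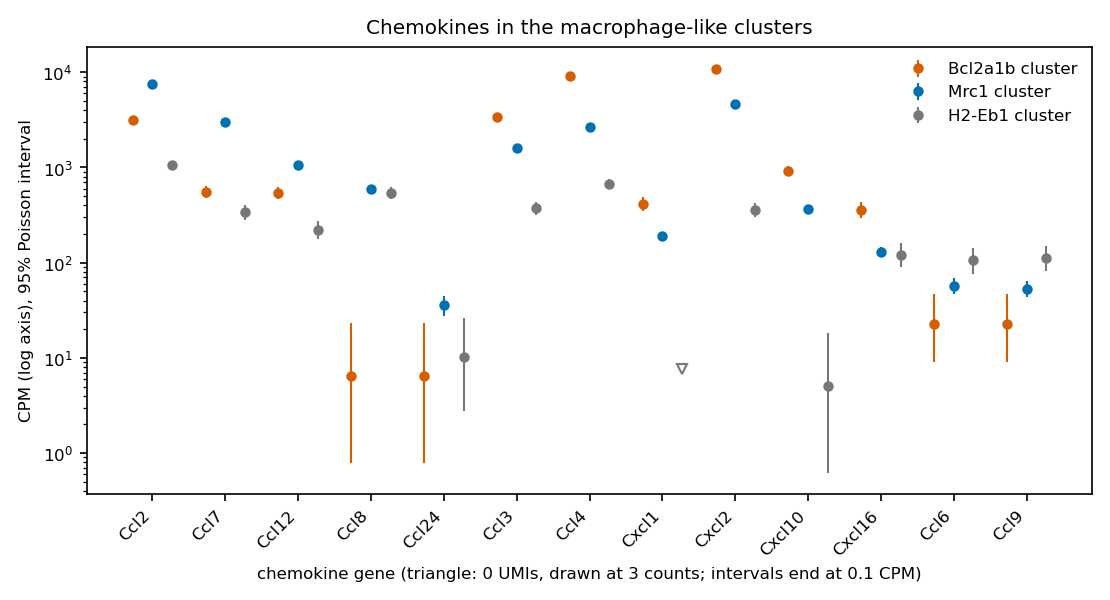
CPM (log axis) of 13 chemokine ligands in the Bcl2a1b, Mrc1 and H2-Eb1 clusters of macrophage-like cells, with exact 95% Poisson intervals. Cxcl2, Ccl4, Ccl3, Cxcl10 and Cxcl1 are highest in the Bcl2a1b cluster and Ccl2, Ccl7 and Ccl12 in the Mrc1 cluster, while Ccl8 is low only in the Bcl2a1b cluster.

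Some ligands went together cell by cell in the Mrc1 cluster, of which 317 cells could be thinned to 2000 UMIs. A Cxcl2 UMI was found in 96.0% of the 50 cells with Cxcl1 and in 52.8% of the 267 without it. It was found in 95.1% of the 61 cells with Cxcl10 and in 51.2% of the 256 without it. Ccl7 was found in 69.6% of the 293 cells with Ccl2 and in 29.2% of the 24 without it. Other pairs did not: Ccl7 was found in 66% of the cells with Cxcl1 and in 66.7% of those without it. Ccl8 was less frequent beside Cxcl10, in 23% of the cells with it and 40.2% of those without it, and was found in 34.9% of the cells with Cxcl2 and 39.8% of those without it. These are cells of 1 sample, so the shares are a description.

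Neutrophil-like cells held 2 members that were higher than in other immune cells and 20 that were lower, of 27, beside 6.85% and 54.5% of genes. With genes above 1% of UMIs left out of the totals, 4 were higher and 17 lower, and the median log2 ratio of all genes was -0.39 in place of -1.12. The 2 were Cxcr2 (252 CPM against 1.5 CPM, log2 ratio 7.39, 6.31 to 8.72), the receptor that leads neutrophils to CXCL1 and CXCL2, and Ccl6 (1.82, 1.59 to 2.04). They split into 133 cells led by Retnlg and 55 led by Camp, a granule gene of immature neutrophils. All 7 measured members were higher in the Retnlg cluster than in the Camp cluster, beside 31.8% of 1937 genes. Cxcr2 was at 524 CPM against 45.3 CPM (3.53, 2.83 to 4.32) and Cxcl2 at 4538 CPM against 7.55 CPM (9.23, 7.68 to 11.51, with 3 UMIs in the Camp cluster). Ccl4 had 488 UMIs and 0 UMIs, which is at least 214.5-fold higher with 3 counts over the Camp cluster as the floor. All 6 measured inflammatory genes and 9 of 10 dissociation genes were higher in the Retnlg cluster too, and their part in the result was not tested.

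Cxcr4, the signalling receptor of CXCL12, was highest in lymphocytes and monocytes. It was at 720 CPM in B-like, 614 CPM in cytotoxic lymphocyte-like, 387 CPM in monocyte-like and 291 CPM in T-like cells. Dendritic-like cells were at 156 CPM, neutrophil-like at 127 CPM and macrophage-like at 124 CPM, which do not differ beyond their counting intervals. Endothelial cells were at 38.2 CPM, erythroid at 35.5 CPM, epithelial at 7.69 CPM and mesenchymal at 2.95 CPM. Droplets of 1 to 20 UMIs, which hold free RNA, had 29.5 CPM, and droplets of over 20 UMIs with under 500 genes had 8.99 CPM. These are shares of the UMIs in droplets and not amounts that free RNA adds to a cell. The 29.5 CPM lay within the intervals of the endothelial and erythroid values and above the epithelial and mesenchymal ones. Whether these 4 classes express Cxcr4 or hold free RNA was not tested. After thinning, 72.1% of B-like cells (59.9 to 82.3%) and 0.394% of mesenchymal cells had a Cxcr4 UMI.

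Ccr7, which guides lymphocytes and dendritic cells to lymphoid tissue, was highest in B-like cells, at 494 CPM in B-like, 158 CPM in T-like and 66.5 CPM in dendritic-like cells. B-like cells had 3 members higher and 20 lower than other immune cells, beside 14.3% and 23.4% of genes, and Ccr7 led them (log2 ratio 4.99, 4.61 to 5.39). The Ms4a1 cluster of B-like cells had 897 CPM of Ccr7, against 68.4 CPM in the Vpreb3 cluster, which carries a pre-B-cell gene (3.71, 2.96 to 4.58). It was 1 of 2 measured members called there, beside 10.9% of 1878 genes. Cxcr4 did not separate the same clusters, at 707 CPM and 734 CPM.

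Other receptors had other highest classes. Ccr2, the CCL2 receptor of monocytes, was at 419 CPM in monocyte-like, 275 CPM in dendritic-like, 86.1 CPM in T-like and 36.6 CPM in macrophage-like cells, and had 1 UMI outside immune cells. Cx3cr1, the fractalkine receptor, was at 410 CPM in macrophage-like cells and at most 40 CPM elsewhere, and 48.4% of thinned macrophage-like cells (43.7 to 53.2%) had a UMI, against 0.148% of mesenchymal cells. Ccr1, a receptor of CCL3 and CCL5, was at 167 CPM in neutrophil-like and 152 CPM in macrophage-like cells, which do not differ beyond their intervals.

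Dendritic-like cells had 5 members higher and 15 lower than other immune cells, beside 6.08% and 22.3% of genes. The count of 5 was 2 at clustering resolution 2.0, with doublets and haemoglobin-rich barcodes kept, or with the chemokine genes used in clustering, and 1 with a minimum of 1000 genes. The Cd209a cluster took another name at resolution 2.0 and at 1000 genes. Ccr9, known for homing to the gut and thymus, led them (5.90, 4.91 to 7.04), followed by Ccr2 (1.80), Cxcl16 (1.28) and Ccl9 (1.10, or 0.95 without the highest cell). Ccr9 lay almost wholly in the 26 cells of the Cox6a2 cluster, in which Siglech, a plasmacytoid dendritic cell marker, was raised. The Cd209a cluster had 5.67 CPM of Ccr9, against 613 CPM in the Cox6a2 cluster (-6.76, -9.84 to -4.83), and Cxcr4 was lower as well, at 128 CPM against 276 CPM. In all 8 of 12 measured members were higher and 2 lower in the Cd209a cluster, beside 19.7% and 16.3% of 1721 genes. Ccl2 (155 UMIs), Ccl5 (142), Cxcl16 (91), Cxcl2 (88), Cxcl10 (71) and Ccl9 (63) were detected in the Cd209a cluster and at 0 in the Cox6a2 cluster. Some of these counts leaned on few cells. The 2 highest cells gave 93 and 28 UMIs of Ccl5, 25 and 18 of Cxcl2, and 20 and 12 of Cxcl10. All 12 dissociation genes were higher in the Cd209a cluster, and their part in the result was not tested.

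T-like and cytotoxic lymphocyte-like cells together had 4 members higher than other immune cells and 18 lower, beside 11% and 23.9% of genes. Cxcr6, a receptor of tissue-resident T cells, stood at 137 CPM against 0.407 CPM (8.4, 6.48 to 11.48, with 2 UMIs in the other cells), Ccl5 had a log2 ratio of 8.02 (7.84 to 8.20) and Cxcr3, the CXCL10 receptor, 1.74 from 8 UMIs. The last of the 4, Ccl25, rested on 9 UMIs with an interval of -0.11 to 2.15. Set against T-like cells, cytotoxic lymphocyte-like cells had 3 members higher and 4 lower of 8, beside 7.13% and 9.23% of 1766 genes. Ccl5 (1.75, 1.68 to 1.83), Ccl4 (2.10, 1.74 to 2.48) and Cxcr4 (1.08, or 0.96 without the highest cell) were higher. Ccr7 had 0 UMIs against 44, and Cxcr6 was at 25.3 CPM against 201 CPM (-2.99, -4.91 to -1.55).

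**Figure D3:**
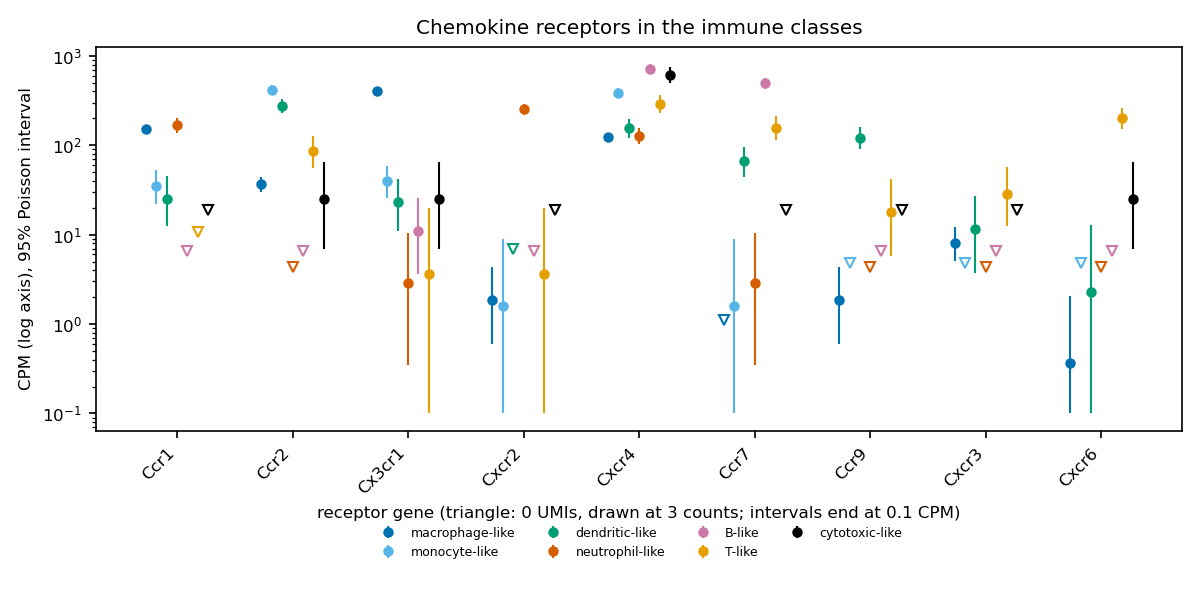
CPM of 9 chemokine receptors in 7 immune classes, with exact 95% Poisson intervals. Ccr7 and Cxcr4 peak in B-like cells, Cxcr2 in neutrophil-like, Cx3cr1 in macrophage-like, Ccr2 in monocyte-like, Ccr9 in dendritic-like and Cxcr6 in T-like cells.

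In the mesenchyme 4 of 33 measured members were higher than in all other cells and 24 lower, beside 16.3% and 19.0% of genes. The higher ones were the stromal ligands Cxcl12 (64.0 CPM against 7.32 CPM, log2 ratio 3.13, 2.86 to 3.41) and Cxcl14 (144 CPM against 30.6 CPM, 2.24, 2.10 to 2.38) and the atypical receptors Ackr4 (3.98, from 68 UMIs) and Ackr2 (2.38, from 28). Thinned shares with a UMI were 9.84% for Cxcl12 (8.58 to 11.2%; 17.9% unthinned), against 0.448% of macrophage-like cells, and 18.5% for Cxcl14 (16.8 to 20.3%; 36.3% unthinned), against 3.80% of epithelial cells. The related ligand genes Rarres2 (85.4 CPM against 1.14 CPM) and Mif, were also higher in mesenchymal cells, whereas 0 of 11 inflammatory and 0 of 12 dissociation genes were.

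Cxcl12 was a gene of 1 mesenchymal cluster, the 382 cells led by Igf1 with raised dental follicle markers such as Ogn, Sfrp2 and Bmp3. It was at 373 CPM there (1024 UMIs), against 8.21 CPM in the other mesenchymal cells (5.50, 5.24 to 5.78). The remaining 8 clusters lay between 0 and 19.6 CPM. Cxcl14 had a second peak: 515 CPM in 207 cells led by Tac1, against 113 CPM in other mesenchymal cells (2.18, 2.05 to 2.31), and 350 CPM in the Igf1 cluster (1.70, 1.59 to 1.82). In the Tac1 cluster Cxcl12 had 2 UMIs, or 1.44 CPM. The Igf1 cluster had 6 of 15 measured members higher and 2 lower, beside 15.1% and 9.82% of 12055 genes, and the Tac1 cluster 1 higher and 5 lower, beside 1.9% and 13.7%. Of those 6, Ccl5, Cx3cr1 and Cxcl2 owed their call to a single cell each, with log2 ratios of -0.11, -0.29 and 0.15 without it. Cxcr4 was at 10.2 CPM in the Igf1 cluster, against 1.64 CPM (2.63, 1.80 to 3.47), from 28 UMIs in 20 cells. Both values lie below the 29.5 CPM of droplets of 1 to 20 UMIs. Droplets of over 20 UMIs with under 500 genes had 8.99 CPM. The part of free RNA in the 2 values was not tested.

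Toward the odontoblasts both ligands were low and Ackr4 was high. The 189 cells led by the odontoblast matrix gene Dmp1 had 1.82 CPM of Cxcl14, against 164 CPM in other mesenchymal cells (-6.50, -8.38 to -5.14), and 1.82 CPM of Cxcl12, against 72.6 CPM (-5.32, -7.20 to -3.96). Ackr4, which takes up CCL19, CCL21 and CCL25, was at 19.1 CPM there, against 1.65 CPM (3.53, 2.79 to 4.30). The small Dspp cluster of 22 cells gave 21.7 CPM of Ackr4 from 6 UMIs, and the preodontoblast-like Lgals3 cluster 5.01 CPM. Ackr2, a scavenger of inflammatory CC ligands, had 26 of its 28 mesenchymal UMIs in the Dmp1 cluster (11.8 CPM). In this cluster 2 of 15 measured members were higher and 7 lower, beside 7.35% and 21.9% of genes; the other was Ccl4, on 8 UMIs and with an interval of -0.31 to 2.20. Reads of Ackr4 cannot be told apart from those of the overlapping gene Acad11 where strand was not used in counting.

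Ackr3, an uptake receptor for CXCL12, ran the other way. It was at 30.8 CPM in the Fmod cluster, against 13.1 CPM in other mesenchymal cells (1.24, 0.82 to 1.64), and at 24.0 CPM in the Igf1 cluster. It was at 1.36 CPM in the Dmp1 cluster (-3.66, -5.94 to -2.09) and 3.76 CPM in the Lgals3 cluster (-2.18, -3.32 to -1.23). The Fmod cluster had 2 members higher and 6 lower, beside 4.18% and 10.9% of genes. In the remaining clusters the counts were 1 higher and 6 lower (Lypd1), 0 and 5 (Ube2c), 3 and 4 (Cldn10), 0 and 5 (Lgals3) and 4 and 4 (Dspp). The shares of all genes called higher and lower beside them were 2.14% and 11.3%, 5.76% and 11.9%, 4.8% and 13%, 1.9% and 15.1%, and 9.94% and 18.5% in the same order. In the Cldn10 cluster all 27 Cx3cr1 UMIs came from 1 cell.

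**Figure D4:**
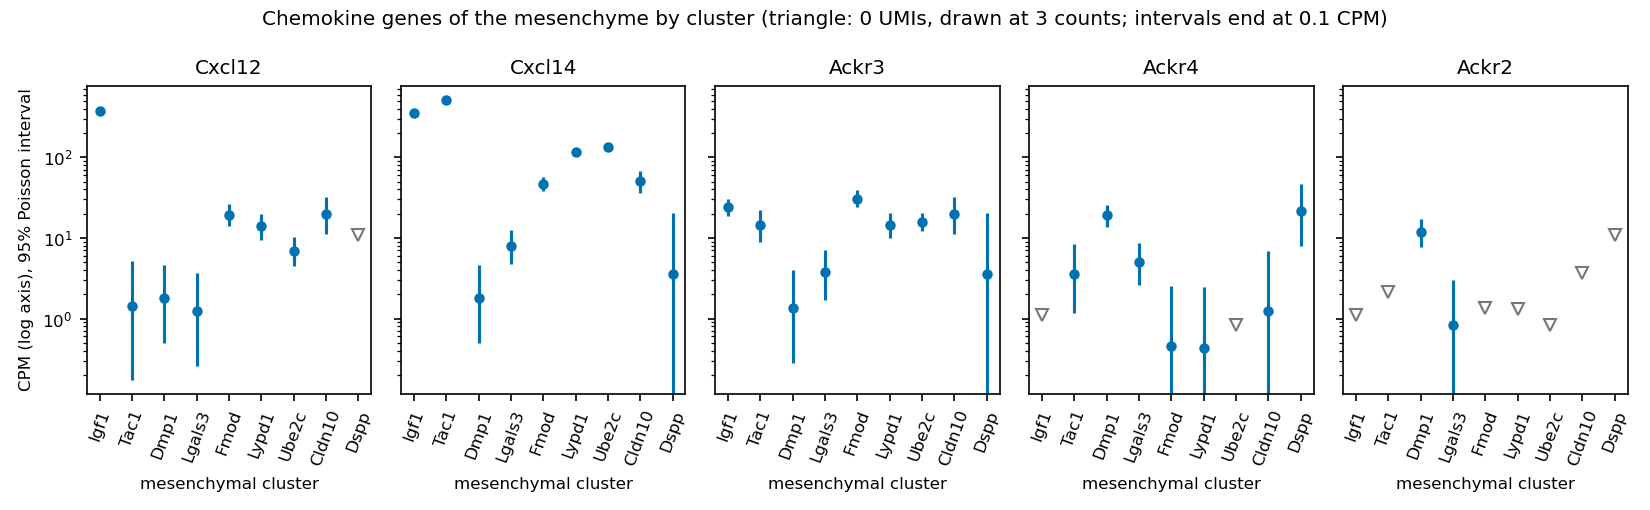
CPM of Cxcl12, Cxcl14, Ackr3, Ackr4 and Ackr2 in 9 clusters of mesenchymal cells, named by leading gene, with exact 95% Poisson intervals. Cxcl12 peaks in the Igf1 cluster, Cxcl14 in the Tac1 and Igf1 clusters, and Ackr4 is highest in the Dmp1 and Dspp clusters.

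The epithelium had 0 of 33 measured members higher and 30 lower than all other cells, beside 9.17% and 25.5% of genes. Compared with the mesenchyme, 1 of 15 was higher and 7 lower, beside 10.6% and 20% of 12919 genes. Among the lower ones, Ccl5 and Cx3cr1 leaned on 1 mesenchymal cell each, with 46 of 74 and 27 of 48 mesenchymal UMIs. Cxcr4 was the higher one, at 7.69 CPM against 2.95 CPM (1.38, 0.86 to 1.91). Both values lie below the levels in both kinds of droplets (29.5 and 8.99 CPM), and the part of free RNA in them was not tested. Cxcl12 (0.69 CPM against 64.0 CPM, -6.53, -7.85 to -5.49) and Cxcl14 (41.1 CPM against 144 CPM, -1.81) were lower. Ackr3 differed less than 2-fold, at 21.8 CPM and 15.3 CPM, and was found in 3.52% of thinned epithelial cells and 3.79% of thinned mesenchymal cells.

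Within the epithelium Ackr3 separated the clusters. It was at 80.9 CPM in 92 cells led by Krt17, against 15.8 CPM in other epithelial cells (2.35, 1.93 to 2.76), and at 46.5 CPM in 210 cells led by Grp, against 13.7 CPM (1.76, 1.37 to 2.15). The 287 cells led by the enamel matrix gene Ambn, an ameloblast gene, had 1 Ackr3 UMI, against 220 in the others (-7.28, -12.59 to -4.79). Cxcr4 was at 20.4 CPM in the Grp cluster, against 3.53 CPM (2.53, 1.83 to 3.26). Both lay below the 29.5 CPM of droplets of 1 to 20 UMIs. The Grp value lay above the 8.99 CPM of droplets of over 20 UMIs with under 500 genes. The part of free RNA in both was not tested. Cxcl14 was higher in the Krt17 cluster (2.09) and the Grp cluster (1.36), but 1 cell gave 74 of 125 and 44 of 190 UMIs, and the log2 ratios were 0.80 and 0.98 without it. Of 6 measured members, 2 were higher and 0 lower in the Krt17 cluster (beside 17.8% and 7.99% of genes), 3 and 0 in the Grp cluster (28.7% and 8.88%), 0 and 3 in the Ambn cluster (3.53% and 40.6%) and 0 and 2 in the Dspp cluster (5.85% and 15.8%).

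Endothelial cells had 4 members higher and 16 lower, beside 16.8% and 15.2% of genes. Cxcl12 was at 233 CPM against 34.1 CPM in all other cells (2.77, 2.47 to 3.06), or a log2 ratio of 2.40 without the cell that held 24 of 104 UMIs. Ackr1, which displays chemokines on venules, was at 35.9 CPM against 0.673 CPM (5.74, 4.72 to 6.72), from 16 UMIs, and was also at 21.8 CPM in erythroid cells, the other cell type known to carry it. The membrane-bound fractalkine gene Cx3cl1 (3.45, 2.26 to 4.47) had 9 UMIs and Ackr2 (3.78, 2.05 to 5.17) had 5.

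Known ligands and receptors were therefore often highest in different classes. Cxcl12 lay in endothelial and mesenchymal cells (233 and 64.0 CPM), Cxcr4 in B-like and other immune cells, and Ackr3 in epithelial, endothelial and mesenchymal cells (21.8, 18.0 and 15.3 CPM). Ccl2 peaked in macrophage-like cells and its receptor Ccr2 in monocyte-like cells. For Cx3cl1 the highest class was endothelial (20.2 CPM) and for Cx3cr1 macrophage-like (410 CPM). Cxcl2 and Cxcr2 met in neutrophil-like cells (1962 and 252 CPM). These levels describe transcripts and not contact or signalling.

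Ccl27a and Ccl25 were spread over several classes. Ccl27a, a relative of the skin ligand CCL27, was at 44.9 CPM in mesenchymal and 39.2 CPM in epithelial cells, and 1216 of its 1254 UMIs lay outside immune cells. Its log2 ratio in mesenchymal cells over all other cells was 0.74, and 1.51 with cells weighted equally, which is past 2-fold. Ccl25, known as the gut and thymus ligand of CCR9, was between 1.36 and 24.4 CPM in all classes. Both overlap more abundant genes, Il11ra1 (5505 UMIs) and Elavl1 (2808 UMIs), so their counts are uncertain. Among other members, Ccr9 and Cxcr6 overlap Lztfl1 (1975 UMIs) and Fyco1 (347 UMIs) on the other strand. Ackr1 (39 UMIs) overlaps Cadm3 (51 UMIs) on its own strand. Cx3cr1 (1220 UMIs) overlaps several less abundant genes, among them Wdr48 (683 UMIs). The part of these overlaps in the counts was not tested.

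Genes that work with chemokines were compared between immune and other cells, where 17.4% of all genes were higher and 33.2% lower. Of 7 measured related ligand and receptor genes 5 were higher in immune cells and 2 lower, with Cd74, a receptor of MIF, at 5976 CPM against 24.9 CPM and the platelet chemokine Pf4 at 1162 CPM against 7.03 CPM. Of 16 receptor signalling genes 11 were higher and 1 lower, led by the GTPase gene Rac2 at 522 CPM against 1.74 CPM. All 11 inflammatory genes were higher, with the cytokine genes Tnf at 481 CPM against 0.785 CPM and Il1b at 522 CPM against 1.26 CPM. All 12 dissociation genes were higher as well, and how far the collagenase digestion contributed to the chemokine levels was not tested.

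Transcripts outside cells were set beside these values. A droplet CPM is a share of the UMIs in droplets, and how much free RNA a cell holds was not measured. In 1465970 droplets of 1 to 20 UMIs, chemokine genes made up 0.170% of 2881242 UMIs, against 0.226% in the kept cells, and in droplets of over 20 UMIs with under 500 genes they made up 0.0427%. In barcodes removed for their mitochondrial share the figure was 0.366%. Ccl2 was at 328 CPM and Cxcl2 at 204 CPM in the droplets of 1 to 20 UMIs. Both were above their levels in mesenchymal cells (5.96 and 3.28 CPM) and erythroid cells (38.2 and 34.1 CPM). The part of free RNA in these low values was not tested, and they are not taken as evidence of expression. Cxcl14 was at 89.5 CPM in the same droplets, above its 41.1 CPM in epithelial cells as a whole. In droplets of over 20 UMIs with under 500 genes it was at 12.2 CPM, below that epithelial value. Among epithelial clusters it ran from 5.47 CPM (Ambn) to 135 CPM (Krt17, where 1 cell gave 74 of 125 UMIs). The part of free RNA in these values was not tested.

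**Figure D5:**
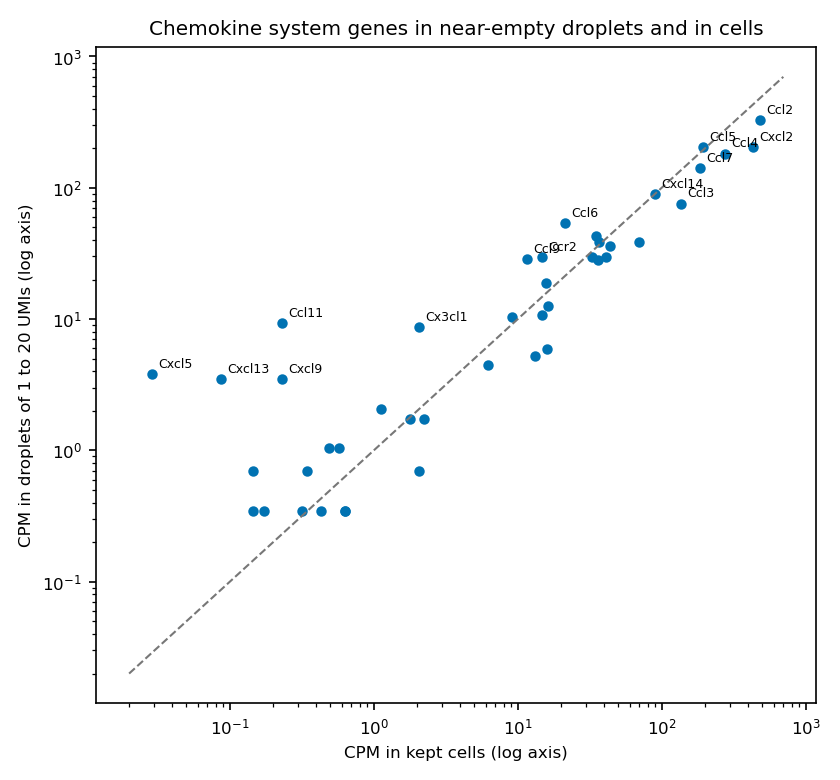
CPM in droplets of 1 to 20 UMIs (vertical, log axis) against CPM in kept cells (horizontal, log axis) for 43 chemokine genes with UMIs in both, with the line of equality. Points lie on both sides of the line, 21 of them above it.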

How the data were processed

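Cells of the mouse incisor were profiled with 10x Genomics 3′ v3 chemistry, per the labels' protocols. The authors deposited raw UMI counts per gene and barcode as 1 unfiltered matrix, made with software version 3.0.2 per the file headers. Build mm10, R 3.4.1 and Seurat stand in the submitters' processing notes; the aligner, the annotation release and any strand setting were not given in the sources used here. No sample columns were left unused (0), and with 1 library no barcodes are shared between libraries.

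A barcode entered (4775 did) with 500 or more genes and no more than 20% mitochondrial UMIs, summed over 13 genes. Scrublet doublets (expected share 5%) were taken at a score above 0.15, since its automatic threshold called 1 barcode. Barcodes outside erythroid clusters with over 5% haemoglobin UMIs were removed. Cells were clustered in scanpy 1.11.5 (Python 3.11.15, leidenalg 0.10.2) with 2000 variable genes, 30 components, 15 neighbours, resolution 1.0 and seed 0, without the chemokine genes, the described lists and mitochondrial genes. Mesenchymal cells were clustered again at resolution 0.5. Names needed at least 3 raised markers. Rebuilt names may differ from the study's own.

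Counts were summed per class and scaled to CPM, with exact Poisson intervals, exact conditional binomial intervals for ratios and Clopper-Pearson intervals for shares (95%; scipy 1.17.1). The fold with 3 counts over a group as floor was used where a side was at 0. Shares used cells thinned to 2000 UMIs, which left out 693 cells (3846 used). No test was made, since there is 1 sample. The members, lists and comparisons were chosen with earlier results of these data known. Named genes are the members with at least 30 UMIs, those below by their count, and up to 4 list genes per comparison with the largest ratios. The values of 1 member are not reported here, though it enters the counts of members.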

Additional observations from a re-analysis of the deposited data

Results flagged for a closer look

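For 6 chemokine genes the level in droplets of 1 to 20 UMIs, which the comparisons do not use, was above the level in the kept cells with the whole 95% interval of the ratio over 2-fold. Ccl6 had 156 UMIs in those droplets (54.1 CPM) and 734 UMIs in kept cells (21.2 CPM), a fold of 2.56. Cx3cl1 had 25 UMIs (8.68 CPM) in the droplets and 72 UMIs (2.08 CPM) in kept cells, a fold of 4.17. Ccl11 had 27 UMIs (9.37 CPM) in the droplets and 8 UMIs (0.231 CPM) in kept cells, a fold of 40.6. Cxcl9 had 10 UMIs (3.47 CPM) in the droplets and 8 UMIs (0.231 CPM) in kept cells, a fold of 15. Cxcl13 had 10 UMIs (3.47 CPM) in the droplets and 3 UMIs (0.0866 CPM) in kept cells, a fold of 40.1. Cxcl5 had 11 UMIs (3.82 CPM) in the droplets and 1 UMI (0.0289 CPM) in kept cells, a fold of 132. Of the 6, all but Ccl6 had fewer than 100 UMIs in kept cells. Ccl9 (28.5 CPM in the droplets and 11.6 CPM in kept cells, log2 ratio 1.29, 0.93 to 1.64) and Ccr2 (29.8 CPM and 14.7 CPM, 1.02, 0.67 to 1.35) were also higher in the droplets, with a lower limit under 2-fold. The source of these transcripts was not tested.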

How the results depend on the processing

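Of 81 recomputed counts of higher members 69 stayed within 1.5 times the value given, and 88 of 128 log2 ratios and 4 of 12 shares stayed within their intervals. A change of sign was looked for only in log2 ratios of at least 1 in size, and 0 of them were reversed. The shares that moved were those at 1000 UMIs or without thinning. Leaving genes above 1% of UMIs out of the totals, or weighting cells equally, gave 1 higher member in epithelial cells (Ackr3; 0 as reported) and 4 in neutrophil-like cells (2 as reported). The first setting moved the median log2 ratio of all genes to -0.02 in epithelial cells (-0.31 as reported), -0.02 in mesenchymal cells (0.19) and 0.11 in macrophage- and monocyte-like cells (0.29). Equal weighting also gave 5 in mesenchymal cells (4 as reported). With at least 10 UMIs, B-like cells had 5 (3 as reported). With at least 100 UMIs, mesenchymal cells had 2, endothelial cells 1 and T- or cytotoxic-like lymphocytes 1 (4 each as reported). Dendritic-like cells (5 as reported) had 1 with a minimum of 1000 genes, and 2 with doublets and haemoglobin-rich barcodes kept, at resolution 2.0, or when clustered with the chemokine genes. The cluster of Cd209a cells took another name at 1000 genes and at resolution 2.0. The log2 ratio of Ccr2 in macrophage- and monocyte-like cells moved with it, 0.57 as reported and 2.37 at resolution 2.0. Leaving out the cell with the most UMIs was chosen after seeing the data. No paired analysis was possible because the 1 matrix has no map from barcodes to lanes. Depth limits the members under 30 UMIs, whose classes are not resolved.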
